A study of Mus musculus with 4 samples.

Results

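A set of 10 transcription regulators of monocyte and dendritic cell (DC) fate, *Irf8*, *Irf4*, *Irf5*, *Klf4*, *Spi1*, *Zeb2*, *Tcf4*, *Spib*, *Runx2* and *Id2*, were followed in single-cell RNA-seq (scRNA-seq) of mouse bone marrow. The 10 genes were chosen by name, with earlier results of these data known, and all 10 were among the 18695 genes of the count matrix. It held 8969 cells in 4 libraries, 1 for each genotype and sort. Mice of both genotypes carried *Tet2* fl/fl, and the mouse called WT was a littermate without Cre. The *Tet2* KO mouse also carried the Mx1-Cre transgene, which is driven by an interferon-responsive promoter. Mice of both genotypes were 8 to 12 weeks old and had been given pI:pC, an inducer of interferon, in 4 doses (12.5 ug/g each), so all groups share that exposure. One sort took GMPs (granulocyte-monocyte progenitors, Lin- cKit+ Sca1- CD34+ CD16/32+). The other, called the Lin-/CD11b+ sort here, took lineage-negative progenitors together with CD11b+ myeloid cells. With 1 mouse per genotype and 1 library per genotype and sort, genotype, mouse and preparation cannot be told apart, and no test between libraries was made. Every interval below is a 95% interval for counting error only.

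These genes act at successive branch points of myeloid development. *Spi1* encodes PU.1, the ETS factor that opens the myeloid programme. *Irf8* encodes an interferon regulatory factor that partners with PU.1 and is required for monocytes, for cross-presenting conventional DCs and for restraint of neutrophil production. *Klf4* is needed for classical monocytes, and *Irf5* encodes an activator of inflammatory genes in monocytes and macrophages. Among DCs, the E protein encoded by *Tcf4* drives the plasmacytoid fate with *Spib* and *Runx2*, while the product of *Id2* blocks E proteins and favours conventional DCs. *Irf4* serves a second branch of conventional DCs and plasma cells, and *Zeb2* encodes a zinc-finger repressor used in monocytes and plasmacytoid DCs.

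The promoters of *Irf8* and *Klf4* are shown because these genes stand at the centre of the comparison of monocytic with granulocytic progenitors. Both sequences are from RefSeq on GRCm38.p6, the patched form of the mm10 build named for these data, and cover the 250 bases before the annotated start of the gene. *Irf8* lies on the plus strand with its promoter at chr8:120736108-120736357, and *Klf4* on the minus strand with its promoter at chr4:55532476-55532725. Capitals mark matches on either strand to TTCNNNGAA, the interferon-gamma-activated site (GAS), to the core of the interferon-stimulated response element (ISRE, GAAA repeated after 2 bases), to GGGCGG, the GC box, or to TATAAA.
Irf8: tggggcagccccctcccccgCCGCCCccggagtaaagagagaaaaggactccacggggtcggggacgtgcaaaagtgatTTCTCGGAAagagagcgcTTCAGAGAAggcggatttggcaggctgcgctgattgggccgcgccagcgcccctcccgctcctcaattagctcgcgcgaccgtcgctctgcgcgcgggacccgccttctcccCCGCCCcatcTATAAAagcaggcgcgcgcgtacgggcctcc
Klf4: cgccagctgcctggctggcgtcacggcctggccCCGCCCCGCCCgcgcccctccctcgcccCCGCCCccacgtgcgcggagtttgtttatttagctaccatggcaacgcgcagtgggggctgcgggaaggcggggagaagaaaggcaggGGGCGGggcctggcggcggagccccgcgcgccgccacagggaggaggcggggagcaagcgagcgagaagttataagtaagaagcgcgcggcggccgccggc
The *Irf8* promoter held 2 matches to TTCNNNGAA, which begin 171 and 153 bases before the start, 2 GC boxes and 1 TATAAA. The *Klf4* promoter held 4 GC boxes, of which an adjacent pair shares 1 base, and no match to the other motifs. Of 32851 promoter windows of this length, 7.02% held TTCNNNGAA, 2.98% the ISRE core, 32.7% GGGCGG and 12.4% TATAAA. Promoters of 8 of the 10 genes were read. *Spi1* had none in the RefSeq table, and the selection of promoters left out the chromosome of *Tcf4*.

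The libraries held 1258 cells (GMP sort, WT), 2719 (GMP sort, *Tet2* KO), 1924 (Lin-/CD11b+ sort, WT) and 3068 (Lin-/CD11b+ sort, *Tet2* KO), with medians of 10417 to 18713 UMIs per cell. A unique molecular identifier (UMI) marks 1 captured RNA molecule. *Tet2* was at 13.02 and 16.99 CPM (UMIs scaled to a common library total, as counts per 1e6) in the WT and *Tet2* KO GMP libraries and at 13.4 and 20.7 CPM in the other sort, and 3′ UMIs do not check a deletion within the gene. A list of samples supplied with the study gives the cell numbers of the *Tet2* KO GMP and the WT Lin-/CD11b+ libraries exchanged relative to the deposited cell table, which was used here. Cells passing a lymphoid gate were 0 in both GMP libraries, 196 (10.2%) in the WT and 289 (9.42%) in the *Tet2* KO Lin-/CD11b+ library. Across libraries, 37 barcodes occurred more than once.

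Cells were assigned to types by the number of markers with a UMI after each cell was thinned to 5000 UMIs, and none of the 10 genes was a marker. The minimum numbers of markers were chosen after marker detection had been seen. MPO+ progenitors, cells with at least 4 of *Mpo*, *Elane*, *Prtn3*, *Ctsg* and *Ms4a3*, were split into mono-biased cells, with at least 3 of *Ly86*, *Csf1r*, *F13a1*, *Tifab*, *Ccr2*, *Ctss* and *Mpeg1*, neutro-biased cells, with at least 2 of 8 granulocytic markers such as *Cebpe*, *Gfi1* and *Fcnb*, and other MPO+ cells. Both biased gates and the HSPC-like gate allowed at most 1 marker of an opposing bias. The remaining gates were HSPC-like, monocyte-like, neutrophil-like, class II DC-like, plasmacytoid DC-like, basophil/mast-like, B-like, plasma-like and T/NK-like. In all, 8390 cells passed a gate, and 482 passed more than 1 lineage gate and were kept. Types with at least 50 cells in a library are reported. In every gate, at least 3 of the 10 leading genes were its own markers, and no other class had more. *Id2* was itself among the 10 leading genes of the class II DC-like gate and *Runx2* among those of the plasmacytoid DC-like gate.

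*Spi1* was the most widely detected of the 10 genes, with a UMI in 66.2% of all thinned cells, followed by *Irf8* in 52.3% and *Zeb2* in 38.2%. *Klf4*, *Tcf4*, *Id2*, *Irf5* and *Runx2* were found in 9.85% to 17.5% of cells, and *Irf4* and *Spib* in 1.54% and 1.42%. Neither *Irf4* nor *Spib* had a UMI in the WT GMP library, where 3 counts would be 0.131 CPM, and 2 and 5 UMIs of them were found in the *Tet2* KO GMP library. The GMP sort therefore gives values for 8 of the 10 genes. Since UMIs count molecules, CPM are not scaled by length, and levels are compared here between cell types within a gene.

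*Irf8* was graded across the types. In WT cells of the Lin-/CD11b+ sort it stood at 2173 CPM in plasmacytoid DC-like cells, 1199 in class II DC-like cells, 763 in monocyte-like cells, 628 in mono-biased cells and 359.7 in other MPO+ cells. These 5 types did not overlap in their intervals. Below them, HSPC-like cells were at 106 CPM, neutrophil-like cells at 60.8, plasma-like cells at 50.5, neutro-biased cells at 44.3 and basophil/mast-like cells at 38.1. The last 4 overlapped with their neighbours. The 5 leading types kept this order in the *Tet2* KO library of the same sort, from 1707 CPM in plasmacytoid DC-like cells to 266 in other MPO+ cells.

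*Klf4* and *Irf5*, the monocyte factors, were highest outside the progenitors. *Klf4* reached 204 CPM (185 to 224.9) in WT monocyte-like cells and 118.5 in class II DC-like cells, against 93.1 in mono-biased, 44.4 in other MPO+ and 1.77 in neutro-biased cells. *Irf5* was at 160.4 CPM (125 to 203) in the WT class II DC-like gate and 114 (99.98 to 130.3) in the monocyte-like gate, which overlap, and at 57.3 in mono-biased and 2.66 in neutro-biased cells. *Zeb2* was highest in monocyte-like cells in both genotypes, at 224.8 CPM in WT and 233 in *Tet2* KO, and *Spi1* in class II DC-like and monocyte-like cells, at 435 and 392 CPM in WT, which overlap. *Spi1* was at 151 CPM in HSPC-like cells and 35.2 in plasma-like cells.

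Among the types reported in WT, the 3 plasmacytoid factors had their highest level in the same type. B-like cells numbered 36 in WT, under the minimum, and were not ranked there. In WT plasmacytoid DC-like cells *Tcf4* was at 343 CPM, *Runx2* at 259 and *Spib* at 44.4, and in *Tet2* KO cells at 348, 287 and 34.4. The next type for *Tcf4* in WT was HSPC-like cells at 75.7 CPM, and for *Runx2* class II DC-like cells at 51.1. *Spib* was as high in B-like cells of the *Tet2* KO library, at 43.0 CPM, where 43 of 78 cells also passed another gate. *Id2*, the inhibitor of E proteins, had the opposite pattern between the DC gates, with 1055 CPM in WT class II DC-like cells and 65.3 in plasmacytoid DC-like cells. *Irf4* was highest in plasma-like cells, at 47.2 and 61.5 CPM in WT and *Tet2* KO, and lay at 16.3 and 11.7 in class II DC-like cells, on 7 and 30 UMIs.

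**Figure D1:**
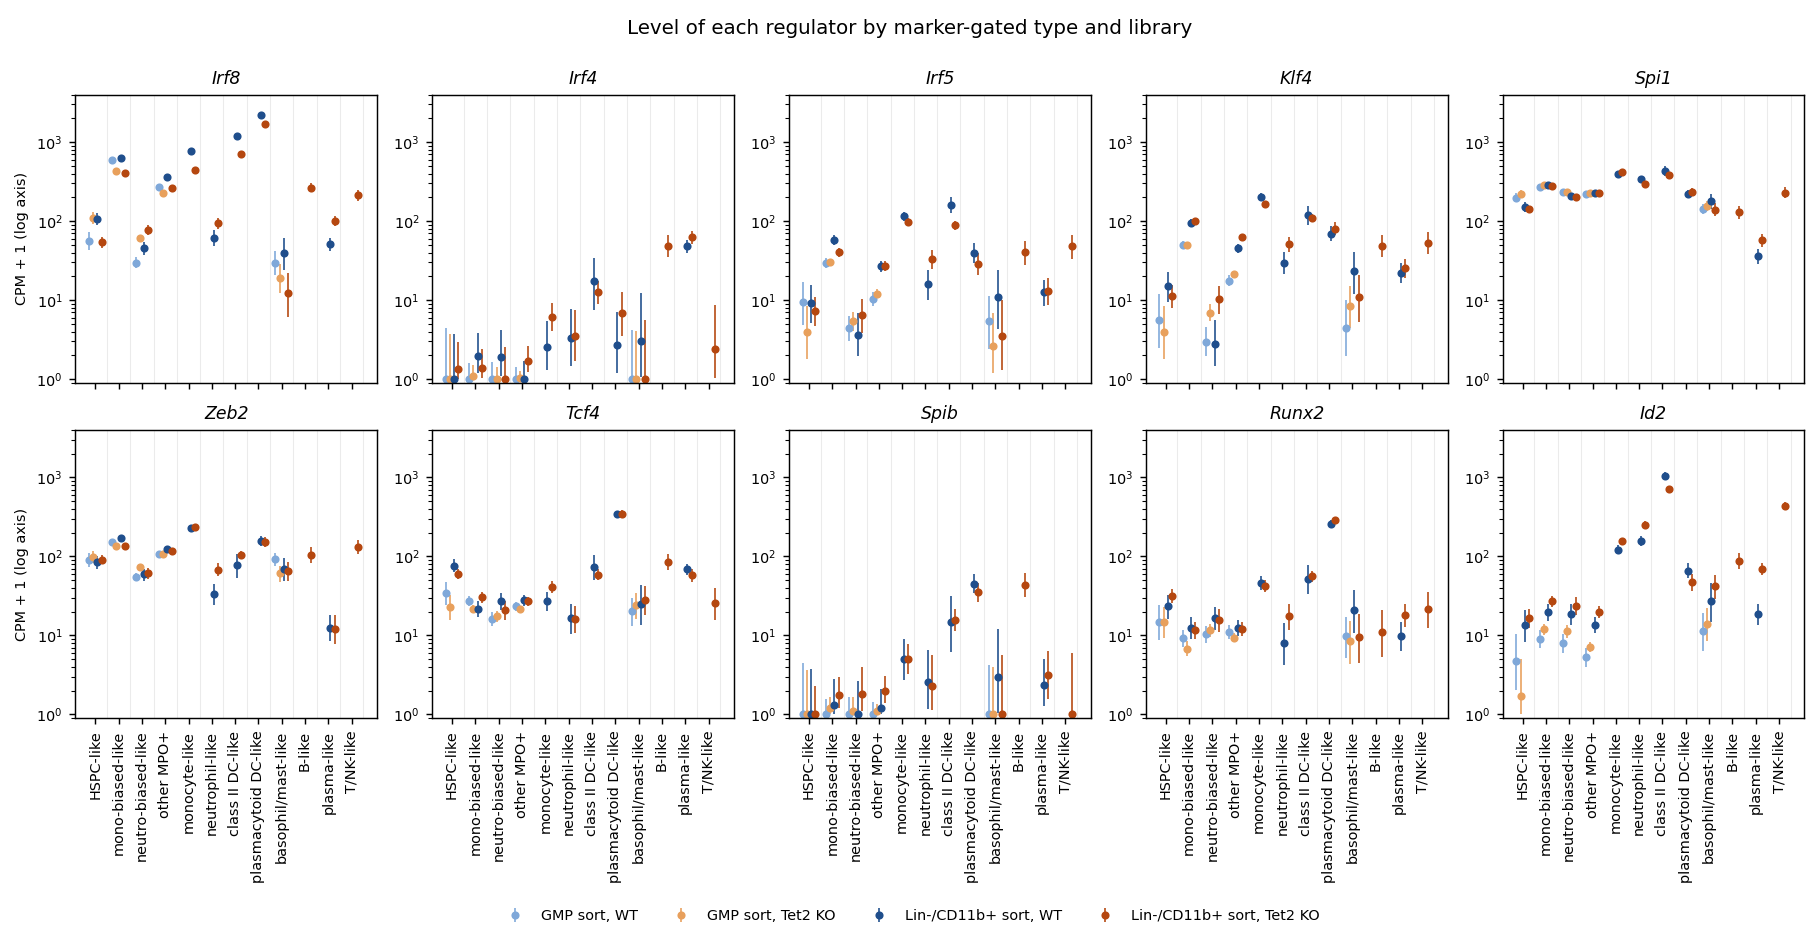
Level of the 10 regulators (CPM + 1, log axis) in each marker-gated type, 1 point per library with 95% counting intervals, for types with at least 50 cells in the library. *Irf8* falls from 2173 CPM in WT plasmacytoid DC-like cells to 38.1 in basophil/mast-like cells, while *Spi1* stays between 35.2 and 435 CPM in the same library.

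Most of these genes were spread widely across types. Of 9 of them with at least 100 UMIs over the types of the WT Lin-/CD11b+ library, 9 differed at least 10-fold between the highest and the lowest type, against 27.1% of all genes, and 9 of 10 did in the *Tet2* KO library, against 19.6%. *Irf4* reached that minimum in WT only through its 102 UMIs in plasma-like cells, its highest type, so its range there follows from the filter. The genes were chosen with earlier results of these data known, so the shares of all genes are given for scale only. Within the GMP sort, which holds fewer types, the numbers were 2 of 8 in WT (2.22% of all genes) and 3 of 8 in *Tet2* KO (1.68%). Mono-biased and neutro-biased cells differed at least 2-fold for 4 of 8 genes in the WT GMP library, where 9.08% of all genes did, and for 3 of 8 in the *Tet2* KO GMP library (7.27%). In the Lin-/CD11b+ sort it was 4 of 8 in WT (13.4%) and 4 of 8 in *Tet2* KO (10.7%). Plasmacytoid and class II DC-like cells differed at least 2-fold for 6 of 9 genes in WT (20.1%) and 6 of 10 in *Tet2* KO (13.6%). Monocyte-like and neutrophil-like cells did for 5 of 8 (49.1%) and 6 of 9 (26.2%).

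The class II DC-like gate was not uniform. In the *Tet2* KO library, 81 of its cells had a UMI of *Xcr1* or *Clec9a*, markers of cross-presenting DCs, and none of *Cd209a*, a marker of the other conventional branch, and 38 had the reverse. *Irf8* was at 1275 CPM (1197 to 1357) in the former and 245 (192 to 308) in the latter, and *Id2* at 1303 and 332. *Irf4*, *Klf4* and *Zeb2* lay the other way in this library, at 7.73, 107 and 63.2 CPM in *Xcr1* or *Clec9a* cells and 33.6, 201 and 168 in *Cd209a* cells. The intervals of *Irf8*, *Id2*, *Klf4* and *Zeb2* did not overlap, and that of *Irf4* did, on 6 and 10 UMIs. In WT, with 21 and 7 such cells, *Irf8* was at 1820 (1607 to 2052) and 477 (291 to 736) CPM and *Id2* at 1868 and 23.8, the latter on 1 UMI. *Klf4* did not lie the other way there, at 130.5 and 119 CPM, and *Zeb2* was at 34.3 and 119 with overlapping intervals, on 5 UMIs in each.

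The comparison of *Tet2* KO with WT cells asks whether these regulators are altered within a type. *Irf8* was the gene with most differences. In mono-biased cells it was at 594 CPM (575 to 613) in WT and 433 (421 to 446) in *Tet2* KO in the GMP sort, and at 628 (600.1 to 656) and 399.8 (383 to 417.5) in cells from the Lin-/CD11b+ sort. The *Tet2* KO value was lower in both sorts, by a log2 ratio of -0.45 (-0.52 to -0.39) and -0.65 (-0.74 to -0.56), of which the second passes 1.5-fold. With 4 further draws of the thinning that sets the gates the second was -0.53 to -0.56, within 1.5-fold. Fewer cells carried many copies. Among mono-biased cells thinned to 5000 UMIs, 21.2% in WT and 9.94% in *Tet2* KO held 5 or more *Irf8* UMIs in the GMP sort, and 20% and 8.51% in the other sort.

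In monocyte-like cells *Irf8* was at 763 CPM (725 to 803) in WT and 442 (419.8 to 464) in *Tet2* KO, a log2 ratio of -0.79 (-0.89 to -0.69). The share of these cells with an *Irf8* UMI was 86.3% in WT and 66.2% in *Tet2* KO. The other monocyte factors stayed within 1.5-fold. *Spi1* was at 392 and 423 CPM, *Zeb2* at 224.8 and 233, *Klf4* at 204 and 163 and *Irf5* at 114 and 96.6. The 9 monocyte markers summed to 7709 CPM in WT and 8264 in *Tet2* KO, while the 9 neutrophil markers summed to 131 and 801 CPM in the same cells, and their part in the result was not tested. Plasmacytoid DC-like cells had a smaller difference in *Irf8*, 2173 against 1707 CPM, or a log2 ratio of -0.35, and other MPO+ cells were at 266 and 224.6 CPM in the GMP sort and 359.7 and 266 in the other sort.

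Class II DC-like cells held *Irf8* at 1199 CPM in WT and 707 in *Tet2* KO, a log2 ratio of -0.76 (-0.90 to -0.62), and *Irf5* at 160.4 and 88.2, a log2 ratio of -0.86 (-1.26 to -0.45). These were 2 of 10 genes lower by at least 1.5-fold, against 9.52% of all genes, and 0 were higher, against 19.6%. The gate held 57 WT and 293 *Tet2* KO cells, of which 18 and 104 also passed another gate. Within *Xcr1* or *Clec9a* cells *Irf8* was still higher in WT, at 1820 CPM (1607 to 2052) against 1275 (1197 to 1357).

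*Irf8* was not lower in every type. In neutro-biased cells of the GMP sort it was at 28.9 CPM (24.6 to 33.7) in WT and 61.0 (55.9 to 66.6) in *Tet2* KO, a log2 ratio of 1.08 (0.82 to 1.34). The share of cells with a UMI was 8.08% in WT and 18.2% in *Tet2* KO. The GMP libraries held at most 1 neutrophil-like cell, so basophil/mast-like cells, chosen after their values were seen, served as the low reference. They were at 7.37% and 6.25%, so that only the *Tet2* KO share stood above that level. Median depths before thinning were 19440 and 14373 UMIs in neutro-biased and 10956 and 10540.0 in basophil/mast-like cells. In the Lin-/CD11b+ sort *Irf8* was at 44.3 and 77.3 CPM, with 15.8% and 22.2% of cells, and a log2 ratio of 0.80 (0.44 to 1.17) that came to 0.13 to 0.54 with further draws. There the reading depends on the reference. Basophil/mast-like cells held *Irf8* in 8.47% and 2.27% of cells, below both shares, and neutrophil-like cells in 17.2% and 20.8%, close to them, but the latter gate also carried mono-biased markers, at 329 CPM in WT and 976 in *Tet2* KO. The difference in the Lin-/CD11b+ sort is therefore given as a value only. In neutro-biased cells the 7 mono-biased markers summed to 76.6 CPM in WT and 112 in *Tet2* KO (GMP sort) and to 112 and 126 (Lin-/CD11b+ sort), with all 7 detected in each, and their part in the result was not tested.

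Mono-biased and neutro-biased cells were nearer in both *Irf8* and *Klf4* in *Tet2* KO than in WT. For *Irf8* the log2 ratio of mono-biased to neutro-biased cells was 4.36 in WT and 2.83 in *Tet2* KO in the GMP sort, and 3.82 and 2.37 in the Lin-/CD11b+ sort. For *Klf4* it was 4.64 and 3.04, and 5.71 and 3.45. With 4 further draws of the thinning, *Klf4* gave 4.15 to 5.34 in WT and 3.496 to 3.89 in *Tet2* KO (GMP sort). In the Lin-/CD11b+ sort it gave 4.297 to 5.69 and 3.26 to 4.26, ranges that nearly meet. *Irf8* gave 3.27 to 4.07 and 2.58 to 2.98 there, and its GMP values lay within their draws. The values 3.04, 5.71 and 2.37 lay outside their draws, each on the side of a wider gap between genotypes. Most of the neutro-biased levels that these ratios divide by were at or near a reference level, so the ratios are no measure of how far apart the cells truly are, and the part of the background in their difference was not tested.

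All MPO+ progenitors were also ordered by how many of the 7 mono-biased markers they showed, which is another view of the same cells, since these markers define the mono-biased gate. Cells with 0 markers had *Irf8* at 34.5 CPM in WT and 54.4 in *Tet2* KO in the GMP sort, a log2 ratio of 0.66 (0.44 to 0.88), and at 35.4 and 53.4 in the Lin-/CD11b+ sort, 0.59 (0.22 to 0.97). Cells with 4 markers were at 635 and 432 CPM in the GMP sort, -0.56 (-0.65 to -0.46), and at 647 and 394 in the other sort, -0.72 (-0.84 to -0.59). Further draws gave -0.44 to -0.35 for these cells in the GMP sort, outside that interval, and -0.77 to -0.51 in the other. At 0 markers the *Tet2* KO value was the higher in both sorts and in each of the 4 further draws, which gave 0.40 to 1.15. The shares of these cells with an *Irf8* UMI were 11.7% and 19.0% in the GMP sort and 12.6% and 21.1% in the other, where they lie close to those of neutro-biased cells and have the same limit. From 2 to 5 markers it was the lower in both sorts and in each further draw, which gave -0.21 to -0.77, with values of -0.18 at 5 markers in the GMP sort and at 2 in the other. At 1 marker the direction changed between draws.

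**Figure D2:**
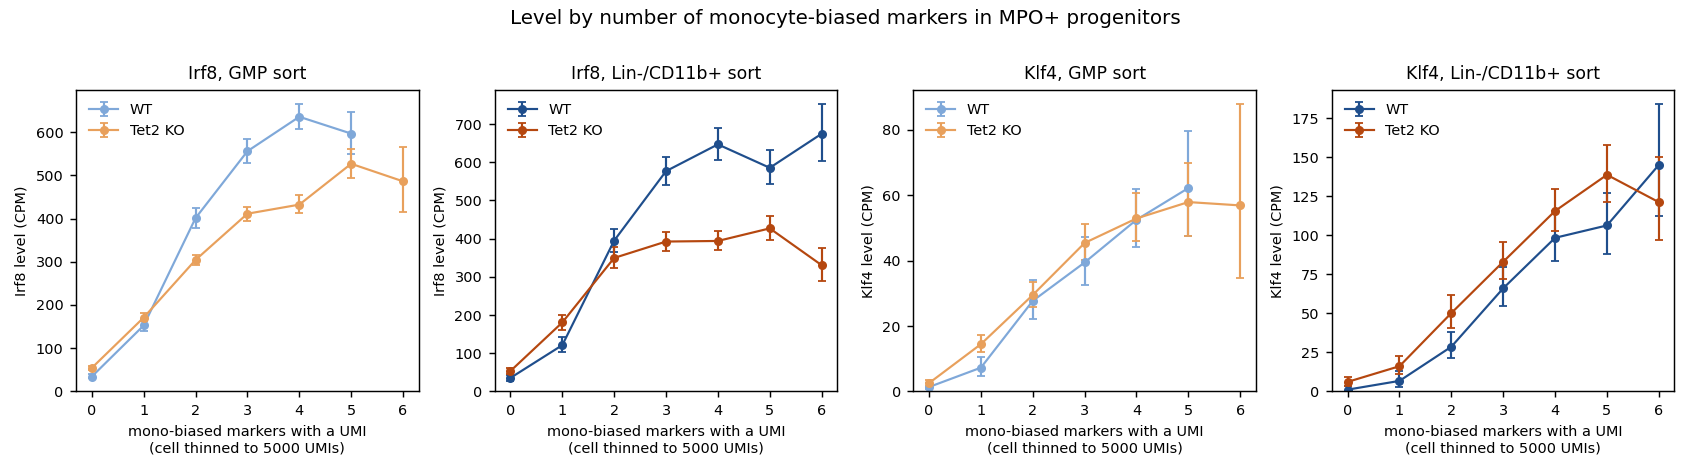
Level of *Irf8* and *Klf4* (CPM, 95% counting intervals) in MPO+ progenitors by the number of the 7 mono-biased markers with a UMI in the cell after thinning to 5000 UMIs, for bins of at least 20 cells. *Irf8* climbs to 635 CPM at 4 markers in the WT GMP library and to 432 in the *Tet2* KO one, whereas *Klf4* is at 52.5 and 52.9 CPM there.

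*Klf4* parted from *Irf8* in mono-biased cells. It was there at 49.1 CPM in WT and 48.8 in *Tet2* KO in the GMP sort and at 93.1 and 101 in the Lin-/CD11b+ sort, within 1.5-fold in both. At 4 mono-biased markers it was at 52.5 and 52.9 CPM, and at 98.4 and 116. In neutro-biased cells *Klf4* was at 1.97 CPM in WT and 5.94 in *Tet2* KO in the GMP sort, on 11 and 50 UMIs, and at 1.77 and 9.20 in the other sort, on 4 and 22 UMIs. Its share of cells there was 0.673% and 1.92% in the GMP sort, below the 2.11% and 5.36% of basophil/mast-like cells. In the other sort it was 0% and 4.23%, below their 5.08% and 5.68%. Neither sort stood above this reference, so both differences are given as values only, and the part of background in them was not tested. At 0 mono-biased markers *Klf4* was at 1.35 and 2.54 CPM in the GMP sort, a log2 ratio of 0.91 (-0.20 to 2.17) that includes 0. In the other sort it was at 1.16 and 6.13, on 3 and 21 UMIs, 2.41 (0.66 to 4.79). Its shares of these cells were 0% and 1.04%, and 0.571% and 2.22%. They too lay below the basophil/mast-like reference, so these differences are also given as values only. *Klf4* and *Irf8* were the 2 of 8 genes higher by at least 1.5-fold in neutro-biased cells of the GMP sort (2.74% of all genes). They were also the 2 of 7 in the Lin-/CD11b+ sort (7.70%), and 0 were lower in either (4.73% and 4.92% of all genes).

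Among HSPC-like cells *Irf8* went opposite ways, from 55.1 CPM in WT to 109 in *Tet2* KO in the GMP sort, and from 106 to 53.5 in the Lin-/CD11b+ sort. The 7 mono-biased markers moved alike, from 61.6 to 132 CPM and from 83.1 to 55.9, and their part in the result was not tested. With no mono-biased or neutro-biased marker allowed in these cells, the second log2 ratio was 0.16 instead of -0.99. *Irf8* was 1 of 5 genes higher in the former (5.56% of all genes) and 1 of 8 lower in the latter (5.51%), where 0 were higher (9.40%). Basophil/mast-like cells held *Irf8* at 28.9 and 18.1 CPM in WT and *Tet2* KO in the GMP sort and at 38.1 and 11.2 in the Lin-/CD11b+ sort, where it was 1 of 5 genes lower (10.1%). *Zeb2* was also lower in these cells in the GMP sort, at 91.1 and 59.98 CPM, so that 2 of 5 genes were lower there (9.71%) and 0 higher (6.95%), and was at 68.3 and 64.5 in the other sort. *Tcf4* was at 33.6 CPM in WT and 21.8 in *Tet2* KO HSPC-like cells of the GMP sort, 1 of 5 genes lower (11.7%), and its log2 ratio of -0.62 (-1.37 to 0.12) includes 0.

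*Spi1* was within 1.5-fold in all 5 comparisons of the GMP sort and in 9 of 10 of the Lin-/CD11b+ sort, for example at 267 and 281 CPM in mono-biased cells of the GMP sort. *Id2* was at 8.10 and 10.9 CPM in mono-biased cells of the GMP sort, at 18.9 and 25.9 in those of the other sort, and at 120.5 and 154 in monocyte-like cells. *Tcf4* was at 26.3 CPM (19.7 to 34.5) in WT and 40.2 (33.8 to 47.5) in *Tet2* KO monocyte-like cells, a log2 ratio of 0.61, and *Irf4* there had 3 and 18 UMIs, 1.52 and 5.21 CPM. They were the 2 of 10 genes higher in monocyte-like cells, against 9.27% of all genes, and *Irf8* the 1 lower, against 5.65%. In mono-biased cells 0 of 8 genes passed 1.5-fold in the GMP sort, where 2.46% of all genes were higher and 3.56% lower, and in the Lin-/CD11b+ sort *Irf8* was the 1 lower of 8 (3.87%) and 0 were higher (7.01%). In other MPO+ cells 0 of 8 passed in either sort, where 1.62% and 4.48% of all genes were higher and 2.75% and 2.50% lower. None of 9 passed in plasmacytoid DC-like cells, where 6.99% of all genes were higher and 7.48% lower.

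The largest numbers were in 2 gates with mixed markers. In neutrophil-like cells 6 of 8 genes, *Irf8*, *Irf5*, *Klf4*, *Zeb2*, *Runx2* and *Id2*, were higher in *Tet2* KO, where 27.2% of all genes were higher and 4.28% lower and the median of all genes was 0.30 on the log2 scale. *Id2* was at 156 and 249.9 CPM, *Irf8* at 60.8 and 92.4 and *Klf4* at 28.9 and 50.4. In the same cells the mono-biased markers summed to 329 CPM in WT and 976 in *Tet2* KO, and 16 of 134 and 49 of 149 cells passed another gate. In plasma-like cells 4 of 9 genes, *Irf8*, *Spi1*, *Runx2* and *Id2*, were higher and 0 lower (18.3% and 5.88% of all genes), with *Id2* at 17.6 and 68.9 CPM. There the monocyte markers summed to 632 and 1540 CPM, and 63 of 139 and 73 of 140 cells passed another gate. In basophil/mast-like cells of the Lin-/CD11b+ sort *Id2* was the 1 gene of 5 higher (12.6%), at 26.1 and 40.9 CPM, with an interval of the log2 ratio of -0.31 to 1.70. Over the 10 comparisons of the Lin-/CD11b+ sort, 15 of 82 values were higher and 6 lower. In the single comparisons 4.48% to 27.2% of all genes were higher and 2.50% to 10.1% lower. Without cells that pass 2 lineage gates the numbers higher and lower were 7 and 12 of 78, for which the share of all genes was not computed.

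**Figure D3:**
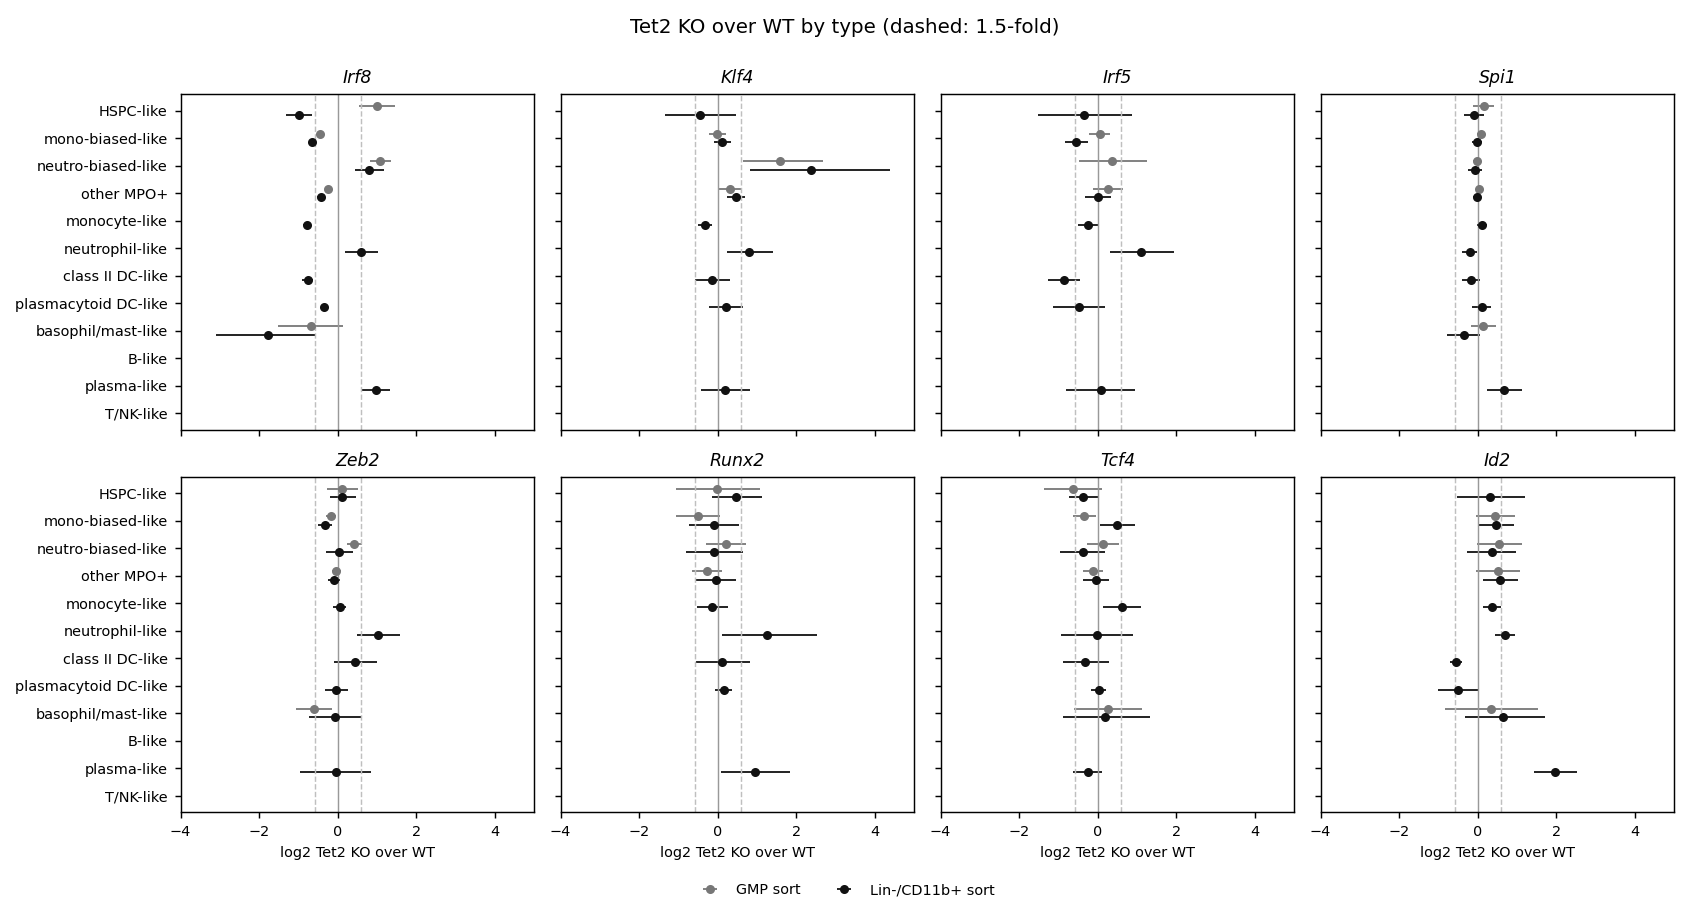
Ratio of *Tet2* KO to WT (log2) for 8 of the regulators in each type, with exact 95% counting intervals, in the GMP sort (grey) and the Lin-/CD11b+ sort (black). *Irf8* lies left of 0 in mono-biased, monocyte-like and DC-like cells and right of 0 in neutro-biased cells, at -0.79 in monocyte-like cells and 1.08 in neutro-biased cells of the GMP sort, while *Spi1* stays near 0 in all myeloid types.

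Whether regulators occur in the same cell was read from co-detection, the share of thinned cells with a UMI of both genes, set beside the product of the separate shares. All 45 pairs were computed, and examples with a product of at least 8 cells are given. *Irf8* and *Klf4* were found together in 8.27% (6.80 to 9.93) of cells of the WT GMP library, against a product of 4.56%, and in 7.65% (6.68 to 8.71) of the *Tet2* KO GMP library, against 4.65%. Other MPO+ cells passed neither biased gate, and they range from few markers of either bias to markers of both. How far this mix enters the pairing was not tested. Within these cells, observed over product was 1.65 (1.13 to 2.31) in WT and 1.59 (1.28 to 1.95) in *Tet2* KO in the GMP sort. In the other sort it was 1.42 (1.13 to 1.76) and 1.29 (1.05 to 1.55). These values lay above 1 in all 4 libraries, and their intervals overlap between genotypes. *Irf5* and *Klf4* were at 2.26 (1.43 to 3.37) in WT and 2.22 (1.46 to 3.22) in *Tet2* KO other MPO+ cells of the Lin-/CD11b+ sort. These intervals overlap those of *Irf8* and *Klf4* in the same cells. The highest value the ratio can reach is lower for a gene found in more cells, as *Irf8* is, so the pairs are not ranked by it.

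Pairs of the DC fates followed the types. Over all cells of the Lin-/CD11b+ sort, *Tcf4* and *Runx2* were at 1.99 (1.66 to 2.35) times the product in WT and 2.11 (1.83 to 2.42) in *Tet2* KO, and *Tcf4* and *Spib* at 3.05 (2.09 to 4.30) and 2.65 (1.93 to 3.55). Within plasmacytoid DC-like cells alone, of pairs with such a product, none but 1 had an interval that left out the product, namely *Zeb2* and *Id2* in WT, at 0.46 (0.17 to 0.97). *Tcf4* and its antagonist *Id2* were found together in 4.20% (3.52 to 4.98) of *Tet2* KO cells of that sort, against a product of 5.20%. *Irf8* and *Irf4* were together in 8 WT cells, 0.33 (0.14 to 0.66) times the product, and in 31 *Tet2* KO cells, 0.62 (0.42 to 0.88) times. Within class II DC-like cells of the *Tet2* KO library, *Irf8* and *Id2* were together in 49.8% (44.0 to 55.7) of cells against a product of 38.4%, and *Klf4* and *Zeb2* in 15.4% (11.4 to 20.01) against 10.4%. A product over all cells moves with the mix of types in a library.

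**Figure D4:**
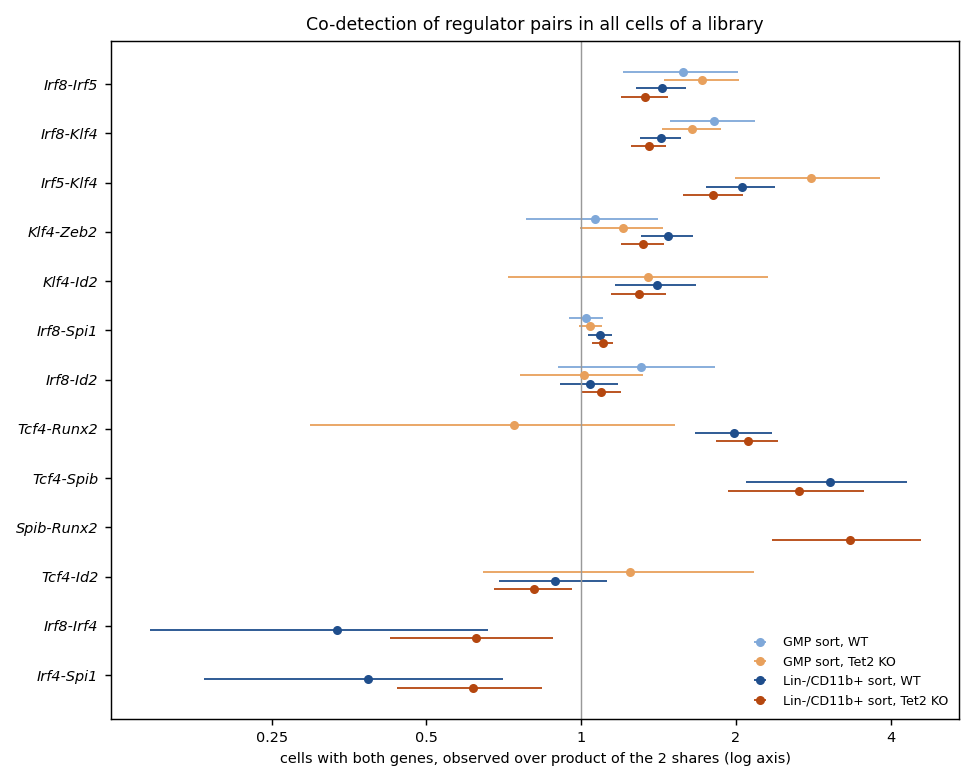
Cells with a UMI of both genes over the number given by the product of the 2 shares (log axis), for 13 pairs over all cells of each library thinned to 5000 UMIs, where the product gives at least 8 cells, with 95% counting intervals. *Tcf4* with *Spib* stands at 3.05 in the WT Lin-/CD11b+ library and *Irf8* with *Klf4* at 1.81 in the WT GMP library, both right of 1, and *Irf8* with *Irf4* at 0.33, left of 1.

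Across the 32 profiles of a type in a library, which share libraries and markers, the genes most like each regulator were described by Pearson's r of log2(CPM + 1) over 10121 genes. For *Irf8* they were *Unc93b1* (0.93), the chaperone of endosomal Toll-like receptors, and *Fgd2* (0.91), and for *Irf5* and *Klf4* the nearest included *Psap* (0.97 and 0.95), a lysosomal protein gene. *Spib* was closest to *Siglech* (0.85) and *Runx2* to *Npc1* (0.88) and *Bst2* (0.84). *Siglech* and *Bst2* are markers of the plasmacytoid gate. *Irf4* was closest to *Cd79a* (0.97) and *Mzb1* (0.96), B-lineage markers, and *Id2* to *Plbd1* (0.94). *Spi1* was closest to *Actr3* (0.97), *Zeb2* to *Clta* (0.94) and *Tcf4* to *Clic4* (0.85). Among the regulators themselves, r was 0.94 for *Irf5* and *Klf4*, 0.83 for *Irf8* and *Irf5* and 0.80 for *Irf8* and *Klf4*.

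Of 51 related regulators and receptors, those past 1.5-fold in the same direction in both sorts of a type were few. *Id1*, another inhibitor of E proteins, was higher in *Tet2* KO mono-biased cells, at 10.5 and 24.3 CPM in WT and *Tet2* KO of the GMP sort and at 21.8 and 41.9 in the other sort, and also in neutro-biased and other MPO+ cells. *Csf1r*, the receptor for the monocyte growth factor M-CSF and itself a mono-biased marker, was higher in neutro-biased cells, at 4.84 and 8.91 CPM and at 3.55 and 9.62. *Cebpb* was higher in other MPO+ cells, at 5.14 and 8.53 CPM and at 12.5 and 22.5. *Flt3*, a receptor of DC progenitors, was lower in HSPC-like cells, at 15.9 and 7.27 CPM and at 77.2 and 50.6. Its log2 ratio in the GMP sort, -1.13 (-2.41 to 0.084), includes 0. *Klf6* was lower in basophil/mast-like cells, at 207.5 and 115 and at 243 and 100.5. The numbers higher and lower stand beside the shares of all genes higher and lower. They were 2 and 5 of 43 in mono-biased cells of the GMP sort (2.46% and 3.56% of all genes) and 7 and 0 of 40 in those of the other sort (7.01% and 3.87%). In neutro-biased cells they were 6 and 3 of 42 (2.74% and 4.73%) and 8 and 1 of 38 (7.70% and 4.92%), and in other MPO+ cells 3 and 4 of 44 (1.62% and 2.75%) and 7 and 0 of 44 (4.48% and 2.50%). In HSPC-like cells they were 2 and 8 of 34 (5.56% and 11.7%) and 5 and 6 of 38 (9.40% and 5.51%), and in basophil/mast-like cells 3 and 7 of 34 (6.95% and 9.71%) and 6 and 6 of 31 (12.6% and 10.1%). In the Lin-/CD11b+ sort alone they were 7 and 2 of 43 in monocyte-like (9.27% and 5.65%), 11 and 5 of 45 in class II DC-like (19.6% and 9.52%) and 3 and 1 of 36 in plasmacytoid DC-like cells (6.99% and 7.48%). The 13 and 3 of 44 in neutrophil-like cells (27.2% and 4.28%) and 6 and 4 of 32 in plasma-like cells (18.3% and 5.88%) lie, for genes higher, near the share of all genes.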

How the data were processed

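scRNA-seq was measured in 4 libraries of sorted mouse bone marrow. The submitters' processing notes name Cell Ranger 3.1.0, Seurat and the mm10 build. The table deposited by the authors holds unnormalized UMI counts, beside a list of each cell's library. The methods state a filter of 200 genes, 5000 UMIs and under 5% mitochondrial counts, and 413 deposited cells were at or over the last limit and were kept. The reagent kit is named as v2 in the methods and v3.1 in the design text.

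UMIs were summed over the cells of a type in a library and scaled to CPM. Intervals were exact Poisson for CPM, exact binomial (Clopper-Pearson) for shares of cells, and for ratios exact conditional binomial. Cells were thinned without replacement to 5000 UMIs for gates, shares and co-detection. A type was compared with at least 50 cells in both libraries, and a gene with at least 20 UMIs over both was past 1.5-fold on CPM + 1, which understates low genes. Types are marker gates, not the study's names, and no doublet caller was run. The members, the 51 related regulators and the markers were chosen with earlier results of these data known. Named were all members, related regulators past 1.5-fold the same way in both sorts (1 is not reported here), and the 2 genes most like each member. The computation was tested on simulated data. Python 3.11.15, numpy 2.4.6, scipy 1.17.1, edgeR 4.0.16 (TMM only) and leidenalg 0.10.2 were used.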

Additional observations from a re-analysis of the deposited data

Results flagged for a closer look

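*Irf8* was past 1.5-fold in opposite directions between types of 1 sort, with log2 ratios of *Tet2* KO to WT of 0.99 in HSPC-like, 1.08 in neutro-biased and -0.68 in basophil/mast-like cells of the GMP sort. In the Lin-/CD11b+ sort they were -0.99 in HSPC-like, -0.65 in mono-biased, -0.79 in monocyte-like, -0.76 in class II DC-like and -1.77 in basophil/mast-like cells, against 0.80 in neutro-biased, 0.60 in neutrophil-like and 0.97 in plasma-like cells. *Irf5* was at 1.11 in neutrophil-like and -0.86 in class II DC-like cells of the Lin-/CD11b+ sort. Some of these values depend on the processing. The -0.68 has an interval of -1.52 to 0.15, which includes 0, and its sign changed without the cells with most UMIs. The sign of -0.99 changed when no marker of the other bias was allowed, and that of 1.11 with Leiden clusters. Both -0.65 and 0.80 came within 1.5-fold in each further draw of the thinning. With 1 library per group, these differences between types were not tested.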

How the results depend on the processing

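No paired analysis was possible because there is 1 library per genotype and sort, all with the same replicate number, and no result comes from a test. In the GMP sort 3 of 34 values were higher and 3 lower in *Tet2* KO. In its single comparisons 1.62% to 6.95% of all genes were higher and 2.75% to 11.7% lower. Shares of all genes were not computed under the alternatives. The numbers higher and lower were 5 and 1 with the mean over cells, 1 and 1 with stricter gates and with Leiden clusters. With TMM 1 was lower, with no filter on low counts 6, and with an offset of 5 CPM, or without the 5% of cells with most UMIs, 0. With gates on further draws of the thinning, added after seeing the data, 2 of 4 draws gave 1 higher and 3 of 4 gave 1 lower. In the Lin-/CD11b+ sort 15 of 82 were higher and 6 lower (4.48% to 27.2% and 2.50% to 10.1% of all genes in its single comparisons). Without cells that pass 2 lineage gates these were 7 and 12, Leiden clusters gave 7 higher of 54, fewer values being compared because other MPO+, class II DC-like and plasmacytoid DC-like cells had no comparison there, and no filter gave 12 lower. The log2 ratio of *Irf8* in neutro-biased cells of the GMP sort, 1.08, was 2.38 with stricter gates, 0.82 with no marker of the other bias, 1.43 without the 3 cells with most of its UMIs and 1.35 in 1 further draw, and that of the Lin-/CD11b+ sort was 0.13 in 1 further draw. In mono-biased cells of that sort it was -0.51 with Leiden clusters and -0.56, -0.53, -0.56 and -0.55 in the further draws. It stayed past 1.5-fold in monocyte-like cells in each alternative. Observed over product of *Irf8* and *Klf4* in *Tet2* KO other MPO+ cells of the GMP sort was 1.26 with all UMIs. Sign changed for *Tcf4* in HSPC-like cells of the GMP sort (0.21, Leiden), *Irf8* in basophil/mast-like cells of the GMP sort (0.22 without the cells with most UMIs) and, in the Lin-/CD11b+ sort, HSPC-like cells (0.16 with no marker of the other bias, 0.17 in 1 further draw), *Irf5* in neutrophil-like cells (-0.066, Leiden), in the same sort *Id2* in basophil/mast-like cells (-0.14 and -0.19 in further draws, -1.32 with Leiden) and *Spi1* in plasma-like cells (-1.05 without cells passing 2 gates). The causes were not tested. Of the other values under an alternative, 1485 stayed within the counting interval of the reported value, 140 moved out of it and 9, those above, changed sign. Most of these values were log2 ratios, of which 89 of 1397 moved, and 4 of 104 co-detection values did. Of CPM levels 26 of 43 moved with stricter gates or Leiden clusters, so the levels by type depend on the gate by more than their intervals. Of shares of cells 21 of 90 moved with all UMIs or further draws. TMM moved log2 ratios by -0.31 in neutrophil-like and -0.22 in plasma-like cells and by at most 0.08 elsewhere. *Irf4* and *Spib*, with 389 and 269 UMIs in all, are limited by depth.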
